A study of Mus musculus with 2 samples.

Results

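The genes described here are the nuclear-encoded subunits of the respiratory chain. They were taken by symbol: every gene of the deposited tables whose symbol begins with Nduf (other than the Ndufaf assembly factors), Uqcr, Atp5, Cox4i, Cox5, Cox6, Cox7 or Cox8, together with Sdha, Sdhb, Sdhc and Sdhd. This found 86 of 24984 genes, of which 39 carry symbols of complex I, 4 to complex II, 8 to complex III, 18 to complex IV and 17 to complex V. Complexes were assigned by the start of the symbol, so Ndufa4, now known to associate with complex IV, stands with complex I. Among them Ndufb4c is annotated as a processed pseudogene and is not known to encode a subunit, which leaves 85 genes and 38 of complex I. The rule itself uses symbols and no measured value, but the set was picked with earlier results of these data known. Of these genes 85 were found in the GENCODE M21 annotation (GRCm38), on 19 chromosomes, with 3 on the X chromosome. Atp5md was not matched there.

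The respiratory chain sits in the inner mitochondrial membrane. Complexes I and II pass electrons from NADH and succinate to ubiquinone, complex III passes them on to cytochrome c, complex IV reduces oxygen, and complex V (ATP synthase) makes ATP from the resulting proton gradient. Most subunits are encoded in the nucleus and a few in the mitochondrial genome. Muscle stem cells (MuSCs) lie on the muscle fibre as quiescent, Pax7-expressing cells that hold few mitochondria, and mitochondrial content rises as they activate, divide, fuse and differentiate. YY1, the zinc finger factor deleted in the study, is known to bind near the start sites of many mitochondrial genes and to work with the coactivator PGC-1alpha in skeletal muscle.

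The question behind the series was how loss of YY1 in MuSCs changes the cells of dystrophic muscle. All mice carried the mdx mutation, which removes dystrophin and models Duchenne muscular dystrophy, and all received tamoxifen. Ctrl mice were Pax7CreERT2/R26YFP; Yy1+/+; mdx, and dKO mice were Pax7CreERT2/R26YFP; Yy1f/f; mdx, so that a Cre driven by the Pax7 promoter deleted Yy1 in Pax7-expressing MuSCs and in the cells they give rise to. Tamoxifen was given at 1.5 months of age. Hind limb muscle was taken 1 month later, the cells of 3 mice were pooled within each genotype, red cells were lysed, live mononuclear cells were sorted, and 1 droplet library was sequenced per genotype. With 1 library per group there was no replicate and no test, and every difference given is one between 2 libraries. Values in brackets after a level (exact Poisson), a ratio (exact conditional binomial) or a share (exact binomial) are 95% intervals, which reflect counting error alone.

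Captured RNA molecules were counted by unique molecular identifiers (UMIs). There were 45556596 UMIs in 4527 cells of Ctrl and 33815155 UMIs in 3483 cells of dKO, with medians of 7697 and 7615 UMIs per cell. After removal of cells under 500 genes and of the highest doublet scores, 4010 and 3079 cells were kept. The libraries shared 7 cell barcodes. Of 22 clusters 21 were named by marker genes, and 11 classes besides the MuSC-like class held at least 30 cells in both libraries. They are called FAP-like (fibro-adipogenic progenitors), MO/MP-like (monocytes and macrophages), EC-like (endothelial cells) and so on, the suffix marking that names rest on RNA alone. No mitochondrially encoded gene was in the tables, so only the nuclear share of the chain could be measured.

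The MuSC-like class held 117 Ctrl and 30 dKO cells, with 2310315 and 618862 UMIs. All 12 of its markers were detected in Ctrl and 11 of 12 in dKO, where Calcr, a receptor of quiescent MuSCs, was at 0. Summed, these markers were at 3282 counts per 1000000 UMIs of the class (CPM) in Ctrl and 3765 CPM in dKO. The other classes held at most 1311 and 1335 CPM of them. Yy1 had 369 UMIs in Ctrl MuSC-like cells, 160 CPM (interval 144 to 177), and 3 UMIs in dKO, 4.85 CPM (1.00 to 14.2). In FAP-like cells, which do not express the Cre driver, Yy1 was at 121 CPM in Ctrl and 132 CPM in dKO. Which exons the Yy1 UMIs came from is not given in the sources used here, so the count gives the level of the transcript and does not show the deleted exon itself. Summed markers of other cells in the MuSC-like class were 954 CPM in Ctrl and 464 CPM in dKO for FAPs (1 and 4 of 15 genes at 0), 529 and 124 CPM for MO/MPs (2 and 7 of 20 at 0), and 33.3 and 8.08 CPM for ECs (2 and 9 of 13 at 0). Myocyte markers were higher in dKO, with 2826 CPM in Ctrl and 5387 CPM in dKO (0 and 2 of 10 at 0, the latter Myh4 and Pvalb). The other classes held at most 105 and 88.9 CPM of them. In dKO the myocyte sum was thus above that of the class's own markers. The part of myocyte markers in the comparisons of dKO with Ctrl was not tested beyond leaving out the cells with over 1% of them. In the classes where they were highest, FAP markers reached 44476 CPM and MO/MP markers 38862 CPM in Ctrl.

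Respiratory chain genes took a larger share of UMIs in MuSC-like cells than in any other class of either library. They made up 3.43% of all UMIs of the class in Ctrl (3.40 to 3.45) and 3.02% in dKO (2.98 to 3.06). Cycling MO/MP-like cells came next, at 2.37% in Ctrl and 2.25% in dKO, followed by smooth muscle and pericyte-like cells at 2.23% and 2.13%. MO/MP-like cells were at 1.99% and 1.74%, cycling FAP-like cells at 1.94% and 1.71%, and dendritic cell-like cells at 1.82% and 1.84%. The median other class was the T cell-like class in both libraries, at 1.51% and 1.56%. Below it stood FAP-like (1.45% and 1.39%), EC-like (1.31% and 1.22%), tenocyte-like (1.24% in both), B cell-like (1.15% and 1.28%) and neutrophil-like cells (0.990% and 0.881%).

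The MuSC-like level was 2.26 times the median other class in Ctrl (2.21 to 2.32) and 1.94 times in dKO (1.89 to 1.99). Against the next highest class the ratio was 1.45 (1.43 to 1.46) in Ctrl and 1.34 (1.31 to 1.37) in dKO, so neither interval reached 1. Each complex was higher in MuSC-like cells than in the median class, and higher than in every other class except complex II in dKO, which was at 469 CPM in MuSC-like cells and 488 CPM in smooth muscle and pericyte-like cells. In Ctrl the ratios were 2.05 for complex I, 2.43 for complex II, 2.34 for complex III, 2.19 for complex IV and 2.19 for complex V. In dKO they were 1.91, 1.72, 2.10, 2.04 and 1.81 in the same order. Complex V made up the largest share of the UMIs, 32.5% of respiratory chain UMIs in Ctrl MuSC-like cells, and complex II the smallest, 1.91%.

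**Figure D1:**
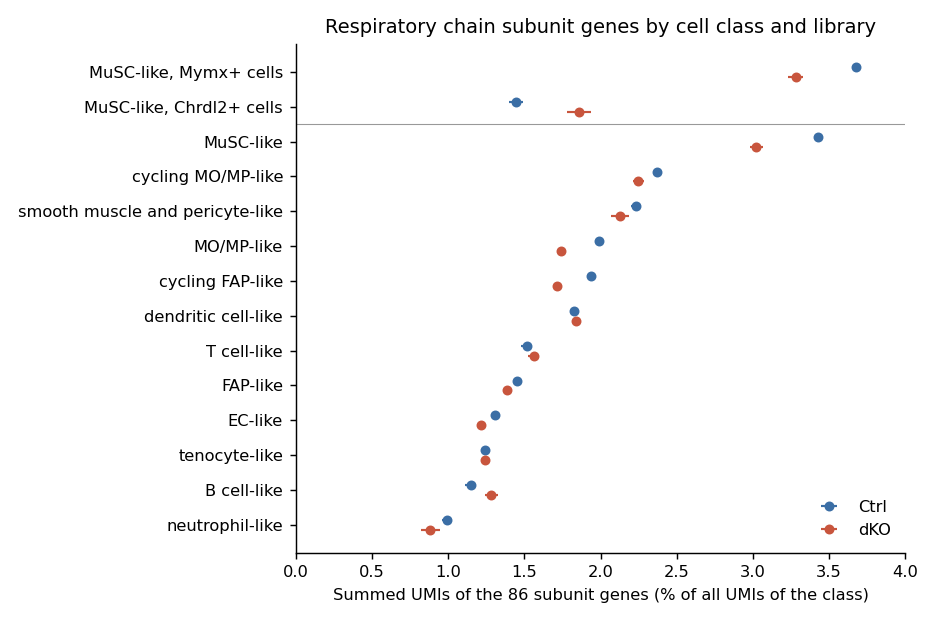
Summed UMIs of the 86 respiratory chain genes as a percent of all UMIs of each cell class (x axis, percent), for the Ctrl and dKO libraries, with exact Poisson 95% intervals that cover counting error only. MuSC-like cells stand highest in both libraries, at 3.43% and 3.02%, and neutrophil-like cells lowest, at 0.990% and 0.881%.

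The level moved with sequencing depth inside the MuSC-like class more than inside other classes. Single MuSC-like cells ranged from 0.181% to 7.39% in Ctrl and from 0.305% to 4.04% in dKO, with medians of 2.40% and 2.19%. Across these cells the rank correlation between the percent and a cell's UMI total was 0.762 in Ctrl (117 cells) and 0.778 in dKO (30 cells), given as a description, since cells of 1 library are not replicates. In the other classes with 30 cells or more it lay between -0.230 and 0.461. Within the states described below it was lower, at 0.387 in Ctrl and 0.692 in dKO for Mymx+ cells and at 0.541 and 0.434 for Chrdl2+ cells. The deepest 12 Ctrl cells held 30.2% of the class's UMIs, and the deepest 3 dKO cells likewise held 30.2%.

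Cells of like depth gave a smaller difference between classes. Among cells with 5000 to 20000 UMIs, a window chosen after the data had been seen, MuSC-like cells stood at 2.43% in Ctrl (48 cells) and 2.10% in dKO (11 cells). Ctrl MuSC-like cells were then at 1.33 times the median other class and still above all 11 other classes, the nearest being cycling MO/MP-like cells at 2.29%. In dKO the ratio was 1.202, and 3 of 11 classes stood above the MuSC-like class, namely cycling FAP-like (2.32%, 4 cells), cycling MO/MP-like (2.23%) and smooth muscle and pericyte-like cells (2.21%). The window also changed the make-up of the class: of the cells left, 25 in Ctrl but only 2 in dKO were of the Mymx+ state described below, and 23 and 9 of the Chrdl2+ state. With every cell thinned to 2000 UMIs, which left 112 of 117 Ctrl and all 30 dKO MuSC-like cells, the ratio to the median class was 1.62 in Ctrl and 1.45 in dKO.

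Sub-clustering of the MuSC-like cells, with the respiratory chain genes left out of the clustering, gave 2 groups of cells. The first was led by Acta1, Actc1, Mymx, Tnnc2 and Mymk, genes of sarcomeric proteins and of the fusogens Myomaker and Myomixer, and is called Mymx+ here. It held 71 Ctrl and 13 dKO cells, 60.7% (51.2 to 69.6) and 43.3% (25.5 to 62.6) of the class, and 88.8% and 81.9% of its UMIs, with medians of 23710 and 48622 UMIs per cell. The second had Chrdl2 and Chodl, both of the MuSC marker list, and Nppc and Hsd11b1 among its 10 leading genes, and is called Chrdl2+. It held 46 Ctrl and 17 dKO cells, with medians of 4987.5 and 5435 UMIs. Pax7, a marker of MuSCs, was at 194 CPM in Ctrl and 205 CPM in dKO in Chrdl2+ cells and at 39.5 and 15.8 CPM in Mymx+ cells. Myod1, also of the MuSC marker list, was at 314 and 365 CPM in Chrdl2+ cells and at 283 and 272 CPM in Mymx+ cells. Myog, which marks differentiating myoblasts, was at 855 and 1131 CPM in Mymx+ cells and at 11.6 and 0 CPM in Chrdl2+ cells.

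Respiratory chain genes made up 3.68% of the UMIs of Mymx+ cells in Ctrl (3.65 to 3.70) and 3.28% in dKO (3.23 to 3.33). In Chrdl2+ cells they made up 1.45% in Ctrl (1.40 to 1.49) and 1.86% in dKO (1.78 to 1.94). The Mymx+ level was thus 2.54 times the Chrdl2+ level in Ctrl (2.46 to 2.63) and 1.77 times in dKO (1.69 to 1.85). The difference was broad across genes. Of 76 respiratory chain genes with 50 or more UMIs in Ctrl MuSC-like cells, 73 were 1.5-fold or more higher in Mymx+ cells, against 42.5% of all genes so tested. In dKO the count was 47 of 71, against 34.6% of all genes. The 3 exceptions in Ctrl, named after their values were seen, were Cox7a2l, a subunit relative that joins complexes III and IV, at 0.940 times the Chrdl2+ level, Sdha at 1.07 and Ndufa6 at 1.22.

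Measured on their own, Chrdl2+ cells did not stand above the other classes. Their Ctrl level was 0.954 times the median other class, with 7 of 11 classes above it, and their dKO level 1.19 times, with 2 of 11 above it. The Chrdl2+ cells also carried more RNA of other cell types: FAP markers summed to 3743 CPM in Ctrl and 1131 CPM in dKO, against 604 and 316 CPM in Mymx+ cells, and MO/MP markers to 1928 and 187 CPM, against 353 and 111 CPM. The part of these markers in the Chrdl2+ levels was not tested. Cell cycle genes summed to 956 CPM in Ctrl and 547 CPM in dKO in Mymx+ cells and to 46.5 and 35.6 CPM in Chrdl2+ cells.

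**Figure D2:**
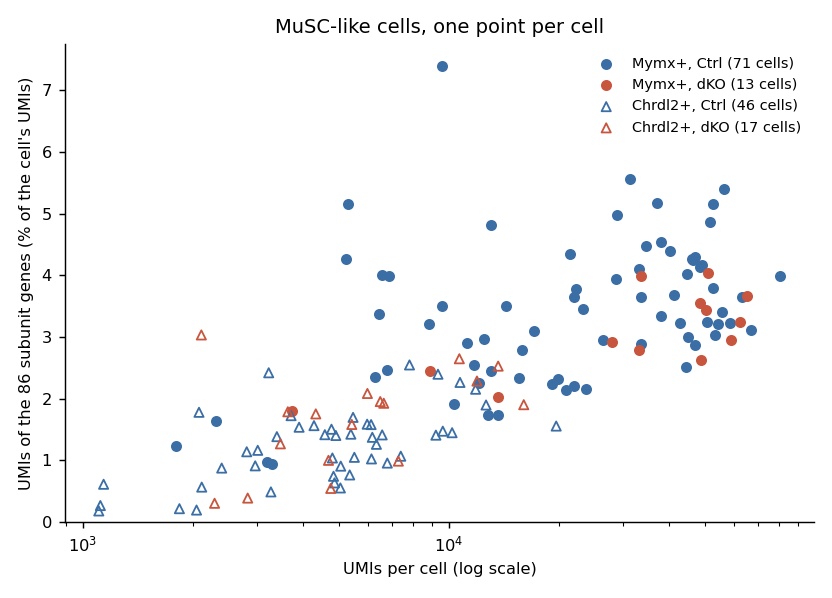
Each point is 1 MuSC-like cell, placed by its total UMIs (x axis, log scale) and by the percent of them from the 86 respiratory chain genes (y axis), for Ctrl and dKO, with Mymx+ and Chrdl2+ cells marked. Mymx+ cells lie to the right and higher (cell medians 3.37% in Ctrl and 2.94% in dKO), Chrdl2+ cells to the left and lower (1.38% and 1.79%).

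Gene by gene, 83 of the 86 respiratory chain genes reached 50 UMIs over the classes compared in Ctrl. Of these, 71 stood 1.5-fold or more above the median other class in MuSC-like cells, against 38.6% of 12800 genes tested, and 2 stood 1.5-fold or more below it, against 21.9%. In dKO 63 of 83 stood above, against 35.9% of all genes, and 4 below, against 24.3%. The 2 genes below in Ctrl were Ndufa4l2 and Cox4i2, and the 4 in dKO were these and Ndufc1 and Ndufa3, all named after their values were seen. The 63 were all among the 71 of Ctrl. The median log2 ratio of the respiratory chain genes was 1.18 in Ctrl and 1.02 in dKO, against 0.35 and 0.43 over all genes. Of the 78 genes with 50 or more UMIs in MuSC-like cells, 65 in Ctrl and 48 in dKO had their highest level of the 12 classes there, against 24.1% and 23.4% of all genes with as many UMIs. Levels are compared between classes for 1 gene at a time, since CPM were not scaled by transcript length.

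In complex I, the NADH dehydrogenase, the highest ratio in Ctrl belonged to Ndufab1 (chr7:122085403-122101886), the mitochondrial acyl carrier protein that also serves fatty acid and iron-sulphur cluster synthesis. It stood at 454 CPM in Ctrl MuSC-like cells and 410 CPM in dKO, with 97.8 CPM in the median other class of Ctrl. This was 4.64 times that class in Ctrl (3.81 to 5.70) and 3.91 times in dKO, where Ndufv1 (4.68 times) and Ndufa10 (4.37 times) stood above it. Ndufs1, the large iron-sulphur subunit that carries electrons through the peripheral arm, was at 85.3 and 72.7 CPM, 3.57 and 2.89 times the median class. Ndufa12, an accessory subunit, was at 264 and 268 CPM, 3.36 and 2.90 times. Ndufa4l2, a hypoxia-induced relative of Ndufa4, had the lowest ratio in Ctrl, 0.123 (0.0299 to 0.381), from 4 UMIs in MuSC-like cells. Among genes with 50 or more UMIs in MuSC-like cells the lowest ratios in Ctrl were those of Ndufv3, an accessory subunit of the NADH-binding module, at 87.4 CPM and 0.760 times the median class (0.541 to 1.09), and of Ndufa3, a small membrane subunit, at 113 CPM and 1.15 times (0.890 to 1.49). In dKO Ndufv3 was at 1.37 times and Ndufa3 at 0.505 times the median class.

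In complex II, the succinate dehydrogenase, all 4 genes stood highest in MuSC-like cells of Ctrl. Sdhd, which anchors the complex in the membrane with Sdhc, was at 143 CPM in Ctrl and 61.4 CPM in dKO, 3.39 and 1.23 times the median other class. Sdhc was at 146 and 93.7 CPM, 3.07 and 2.06 times. Sdhb, the iron-sulphur subunit, was at 239 and 196 CPM, 2.87 and 2.11 times. The flavoprotein Sdha had the smallest Ctrl ratio, with 127 and 118 CPM and 1.77 and 1.74 times the median class. In dKO, Sdha and Sdhb were highest in MuSC-like cells, while Sdhc ranked 3 and Sdhd 4 among the 12 classes.

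In complex III, the cytochrome c reductase, Uqcr11, a small accessory subunit, was at 603 CPM in Ctrl and 572 CPM in dKO, 3.63 and 3.67 times the median class. The core proteins Uqcrc1 and Uqcrc2 were at 207 and 197 CPM in Ctrl, 3.004 and 2.66 times, and at 111 and 173 CPM in dKO, 1.60 and 2.47 times. The lowest ratios in Ctrl were those of Uqcrb, at 464 CPM and 1.94 times, and of the hinge protein Uqcrh, at 1046 CPM and 2.03 times. All 8 genes of the complex were highest in MuSC-like cells of Ctrl.

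In complex IV, the cytochrome c oxidase, the largest Ctrl ratio among genes with 50 or more UMIs in MuSC-like cells of both libraries together was that of Cox6a2, the heart and muscle form of subunit 6a, at 6.91 times the median class, from 41 UMIs (17.7 CPM in Ctrl), with dendritic cell-like cells at 21.1 CPM and the 2 counting intervals overlapping. Among abundant subunits, Cox5b was at 765 CPM in Ctrl and 747 CPM in dKO, 3.04 and 2.29 times, and Cox5a at 802 and 929 CPM, 2.83 and 3.11 times. Cox7a2l, at 459 CPM and 1.37 times, and Cox6c, at 746 CPM and 1.74 times, had the lowest ratios in Ctrl among these genes, while Cox4i2, below that minimum, had no UMI in MuSC-like cells.

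In complex V, the ATP synthase, Atp5g1, 1 of the 3 genes of the proton-carrying c ring, was at 748 CPM in Ctrl and 635 CPM in dKO, 4.02 and 3.01 times the median class. Atp5o, the stalk subunit that confers oligomycin sensitivity, was at 747 and 525 CPM, 3.51 and 2.43 times. Atp5b, the catalytic beta subunit, was at 1176 and 1021 CPM, 3.47 and 2.64 times. Atp5e, the epsilon subunit of the central stalk, had the lowest Ctrl ratio of the complex, with 665 CPM and 1.29 times, and Atp5h, of the peripheral stalk, the next, with 692 CPM and 1.57 times.

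Some of these counts could be split with near-identical copies. At least 50% of the 31-base stretches in the last 300 bases of the transcript also occur in transcripts of other genes for the pseudogene Ndufb4c (all of them, in 4 other genes), Cox7c (75.2%), Atp5l (72.2%), Ndufs3 (66.3%), Ndufs5 (57.8%), Atp5h (54.8%) and Atp5g2 (52.6%), so values of these genes are uncertain.

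**Figure D3:**
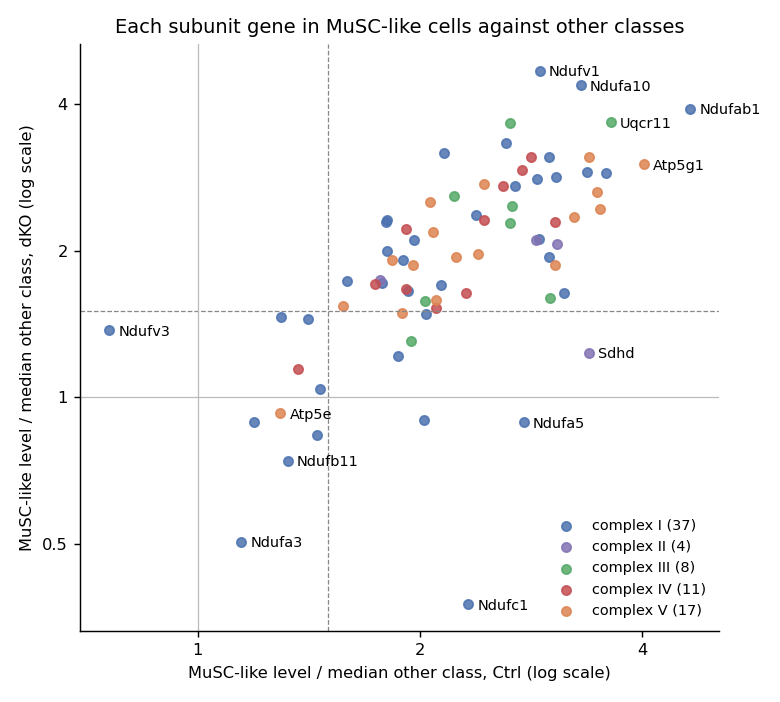
Each point is 1 of 77 respiratory chain genes with 50 or more UMIs in MuSC-like cells, placed by the ratio of its MuSC-like level to the median other class in Ctrl (x axis, log scale) and in dKO (y axis, log scale) and coloured by complex, with dashed lines at 1.5. Most genes lie in the upper right, at or above 1.5 in both libraries, while Ndufc1 (2.33 in Ctrl and 0.376 in dKO), Ndufa5 (2.77 and 0.888) and Sdhd (3.39 and 1.23) lie low on the right. Cox6a2, with 0 UMIs in the median other class of dKO, is not shown.

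The dKO library was compared with Ctrl within each class. In MuSC-like cells the summed respiratory chain level was 0.881 times Ctrl (0.867 to 0.895). The same ratio was 0.875 in MO/MP-like cells, 0.882 in cycling FAP-like cells and 0.890 in neutrophil-like cells, which do not express the Cre driver, so a ratio of this size was also found in classes without the driver. It was 0.932 in EC-like, 0.949 in cycling MO/MP-like, 0.952 in smooth muscle and pericyte-like and 0.956 in FAP-like cells, between 0.998 and 1.03 in tenocyte-like, dendritic cell-like and T cell-like cells, and 1.12 in B cell-like cells. In MuSC-like cells complex II had the lowest ratio of the complexes, 0.715 (0.628 to 0.811), followed by complex V at 0.840 (0.816 to 0.864). Complexes I and III were at 0.889 each and complex IV at 0.932 (0.904 to 0.961).

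Inside the MuSC-like class the summed ratios of both states lay on opposite sides of 1, a difference that was not tested. In Mymx+ cells dKO was at 0.892 times Ctrl (0.877 to 0.907), and in Chrdl2+ cells at 1.28 times (1.22 to 1.36). Of 44 genes with 50 or more UMIs in Chrdl2+ cells, 4 were 1.5-fold or more lower in dKO, against 20.9% of all genes so tested, and 15 higher, against 19.2%. The shares of Mymx+ cells, the state with the higher level, have overlapping intervals in the 2 libraries, as given above. With the Ctrl levels of both states weighted by the UMI shares of the dKO library, the Ctrl level was 3.27%, against the 3.43% measured and 3.02% in dKO. Without the cells that held a UMI of the proliferation genes Mki67 or Top2a, the log2 ratio of dKO to Ctrl in the whole class was -0.26, against -0.18 for all cells.

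Of the 86 genes, 78 reached 50 UMIs in MuSC-like cells of both libraries together. Of these, 16 were 1.5-fold or more lower in dKO, against 16.0% of 6279 genes tested, which makes 20.5% of the 78. Without the pseudogene Ndufb4c these were 15 of 77. Only 2 of the 78 were 1.5-fold or more higher, against 10.4% of all genes. The median log2 ratio was -0.18, against -0.02 over all genes, and 58 genes were below 0 and 20 above, against 51.2% and 48.8% of all genes. The counting interval lay below 0 for 33 genes and above 0 for 9, against 14.4% and 12.8% of all genes, a count that also depends on how many UMIs a gene has. Compared with other classes, the MuSC-like ratio was below that of every other class for 20 of 75 genes that had at least 5 other classes to compare with, against 20.1% of all genes, and above every other class for 5, against 17.3%.

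The lowest ratio was that of Ndufc1, a small membrane subunit of complex I (chr3:51404677-51408988). It had 626 UMIs in Ctrl MuSC-like cells (271 CPM, 250 to 293) and 25 in dKO (40.4 CPM, 26.1 to 59.6). The dKO level was 0.149 times Ctrl (0.0957 to 0.222). In the other classes the ratio ran from 0.778 in MO/MP-like cells to 1.31 in dendritic cell-like cells, for example 117 CPM in Ctrl and 108 CPM in dKO in FAP-like cells, and MuSC-like cells ranked 1 of 12 classes in Ctrl and 11 in dKO. The ratio was 0.108 in Mymx+ cells (603 and 16 UMIs). In Chrdl2+ cells it was 0.898, from 23 and 9 UMIs, with an interval from 0.366 to 2.02, which covers both no difference and a large one.

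Ndufa5, an accessory subunit of the peripheral arm (chr6:24518666-24528013), came next apart from Ndufb4c, given below. It had 547 UMIs in Ctrl (237 CPM) and 51 in dKO (82.4 CPM), a ratio of 0.348 (0.256 to 0.464), while the other classes lay between 0.678 and 1.17. In FAP-like cells it was at 98.3 CPM in Ctrl and 99.0 CPM in dKO. Ndufa3 had 261 and 27 UMIs (113 and 43.6 CPM), a ratio of 0.386 (0.250 to 0.575), against 0.569 to 1.38 in the other classes. Sdhd had 331 and 38 UMIs, a ratio of 0.429 (0.298 to 0.601). The EC-like class, at 0.446, came near it, from 38.6 CPM in Ctrl and 17.2 CPM in dKO, so Sdhd was low in more than the MuSC-like class. The remaining pair of the 6 lowest, the pseudogene Ndufb4c (49 and 4 UMIs, ratio 0.305), whose counts cannot be told apart from those of other genes, and Ndufb4 (76 and 10 UMIs, ratio 0.491), rested on few counts, with intervals of 0.0799 to 0.831 and 0.226 to 0.954.

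The 6 highest ratios were those of Ndufv3, Ndufv1, Cox6a2, Uqcrq, Ndufa9 and Ndufa10. Ndufv3 was at 87.4 CPM in Ctrl and 147 CPM in dKO, a ratio of 1.68 (1.30 to 2.16), and Ndufv1, the flavoprotein that binds NADH, at 143 and 223 CPM, a ratio of 1.56 (1.27 to 1.90). Uqcrq, a small subunit of complex III, was at 691 and 974 CPM, a ratio of 1.41 (1.28 to 1.55). The ratio of each of these 3 genes was higher than in every other class compared. This also held for Ndufa10, and for Cox6a2 with only 1 other class compared. Ndufa9 was at 1.38 (1.05 to 1.79) and Ndufa10 at 1.32 (1.04 to 1.67), and the interval of Cox6a2, 0.763 to 2.65 around 1.46, included 1. Within complex I alone the ratios ran from 0.149 to 1.68.

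Below the 50 UMI minimum in MuSC-like cells were 8 genes: Ndufs5, Ndufa4l2, Cox8b, Cox7a1, Cox6b2, Cox4i2, Cox8c and Cox7b2. Cox8c had no UMI in any kept cell.

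**Figure D4:**
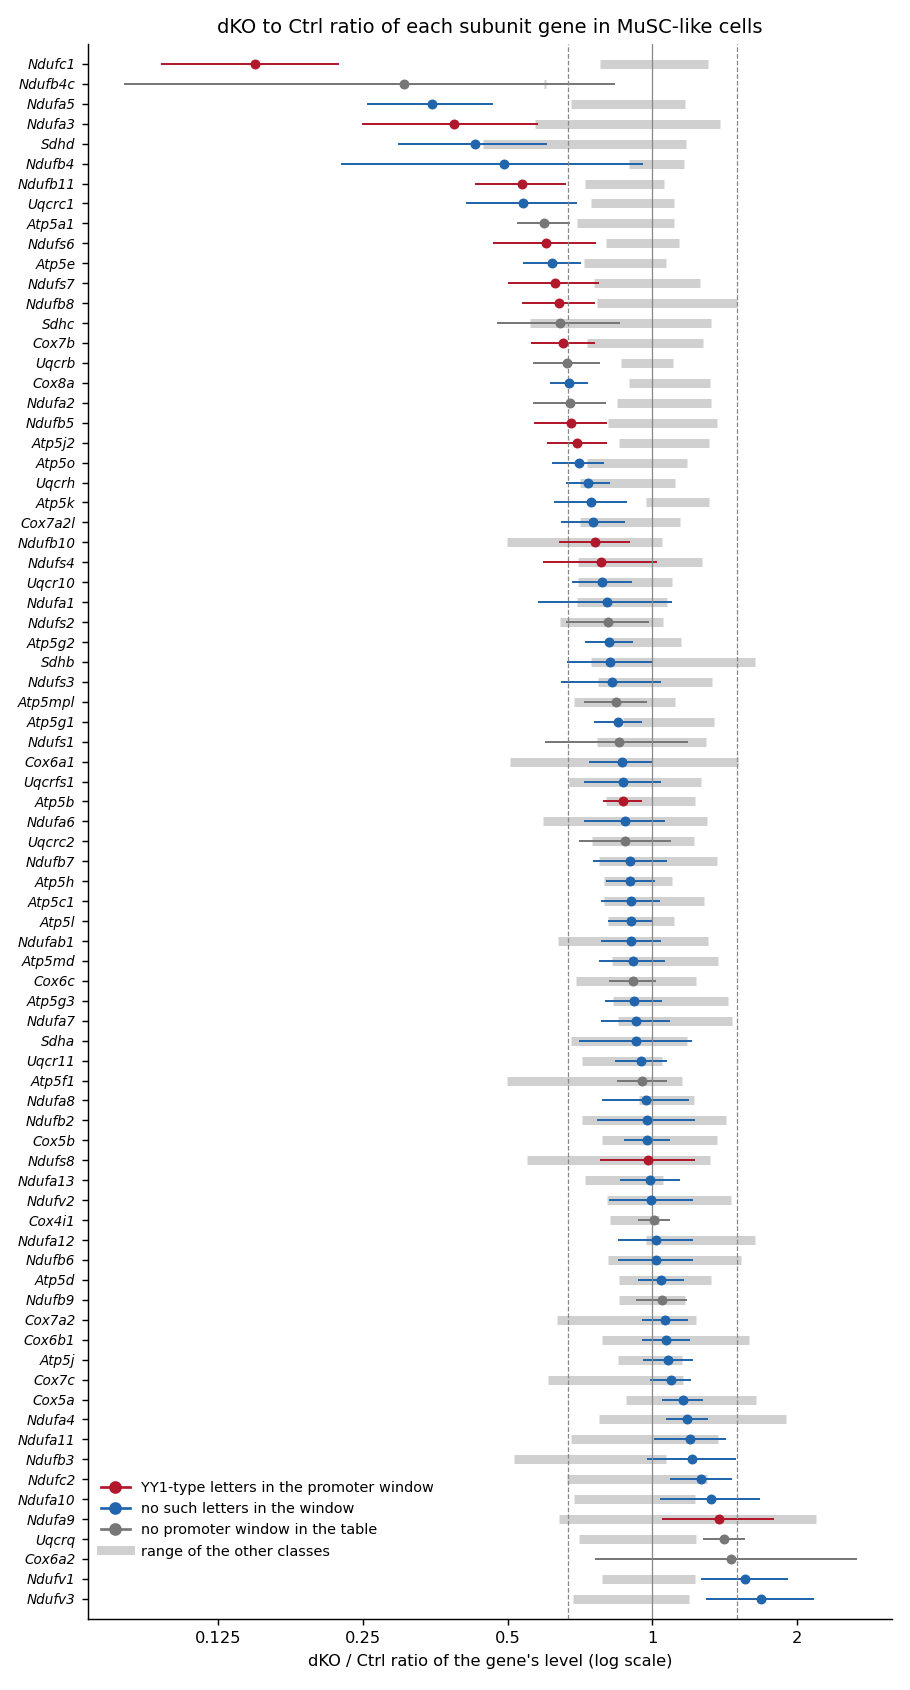
Ratio of dKO to Ctrl in MuSC-like cells (x axis, log scale) for the 78 respiratory chain genes with 50 or more UMIs, with the exact 95% counting interval of each as a line, the range over the other classes as a grey bar and dashed lines at 1.5-fold. Points are red for genes with YY1-type letters in the promoter window, described below, blue for genes without them and grey for genes with no window. Ndufc1 (0.149), Ndufa5 (0.348) and Ndufa3 (0.386) lie below the range of the other classes, and Ndufv3 (1.68), Ndufv1 (1.56) and Uqcrq (1.41) above it.

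In each of the 11 other classes a smaller share of respiratory chain genes than of all genes passed 1.5-fold in either direction. Such a share also depends on how many UMIs a gene has. In B cell-like cells the shares lay near each other, at 13.3% and 14.2%. The counts were 2 of 81 in FAP-like cells (7.38% of all genes), 3 of 81 in MO/MP-like cells (9.3%), 3 of 77 in EC-like cells (17.0%) and 2 of 77 in smooth muscle and pericyte-like cells (24.2%). They were 2 of 76 in cycling FAP-like cells (15.8%), 1 of 76 in cycling MO/MP-like cells (21.1%), 0 of 74 in dendritic cell-like cells (15.0%), 2 of 75 in tenocyte-like cells (11.0%) and 4 of 67 in T cell-like cells (12.0%). The largest shares of respiratory chain genes were in the shallow classes, with 6 of 45 in B cell-like cells (14.2%) and 5 of 33 in neutrophil-like cells (31.3%). The most extreme ratios were those of Ndufs5, which was at 9.10 CPM in Ctrl and 3.36 CPM in dKO in MO/MP-like cells (log2 ratio -1.44), and of Ndufa9, at 17.99 CPM in Ctrl and 39.5 CPM in dKO in tenocyte-like cells (log2 ratio 1.13). Ndufs5 shares its transcript end with another gene, as given above.

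Because YY1 was the deleted factor, the 300 bases around the RefSeq start of each gene (250 before to 50 after, GRCm38.p6) were searched on both strands for AANATGGC, the core letters of the YY1 motif. For comparison, CCGGAAG of the ETS factors, among them GABPA, and GCGCATGC of NRF1, known activators of respiratory chain genes, were searched as well. Of the 86 genes 68 had a window. The YY1 letters were in 14 of them (20.6%), against 6.69% of the 18303 genes with a window. The ETS letters were in 16 (23.5%, against 11.8%) and the NRF1 letters in 10 (14.7%, against 3.64%). The search was for letters only, and a match is not a measured binding site.

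The windows below, read 5′ to 3′ on the strand of the gene with the motif letters in capitals, are those of the 7 genes that hold the YY1 letters and were 1.5-fold or more lower in dKO, followed by Ndufa9, the 1 gene with the letters whose ratio was above 1 (1.38). They are shown since they carry the match that the comparison rests on, with 30 bases each.
Ndufc1 (chr3:51408915-51408944, minus strand): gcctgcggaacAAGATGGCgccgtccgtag
Ndufa3 (chr7:3617384-3617413, plus strand): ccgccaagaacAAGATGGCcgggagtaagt
Ndufb11 (chrX:20617812-20617841, minus strand): gtcaccaacacAAAATGGCgacgagaagag
Ndufs6 (chr13:73328433-73328462, minus strand): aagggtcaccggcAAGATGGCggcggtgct
Ndufs7 (chr10:80249462-80249491, plus strand): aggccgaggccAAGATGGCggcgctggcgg
Ndufb8 (chr19:44555393-44555422, minus strand): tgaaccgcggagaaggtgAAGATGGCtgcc
Cox7b (chrX:106015720-106015749, plus strand): ggctccctgctgaaaGCCATTTTgtttttc
Ndufa9 (chr6:126849097-126849126, minus strand): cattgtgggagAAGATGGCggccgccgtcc

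The letters occurred 15 times in the 14 genes. They lay on the strand of the gene in 11 genes and after the start in 10. In 8 genes, including Ndufc1, Ndufa3, Ndufs6, Ndufs7, Ndufb8 and Ndufa9 above, the ATG inside the letters is the annotated start codon, so the match lies across the end of the 5′ untranslated region and the first codons. In Cox7b the letters lie on the opposite strand after the start, and in Ndufb11 their first base is at position -211 from the start.

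In MuSC-like cells 7 of the 14 genes with the YY1 letters were 1.5-fold or more lower in dKO, against 22.3% of all genes with the letters. Of the 49 genes with a window, 50 or more UMIs and no YY1 letters 5 were lower, against 15.0% of all genes without them. The median log2 ratio of dKO to Ctrl was -0.59 with the letters and -0.14 without, against -0.15 and 0.02 over all genes with and without them. In FAP-like cells, which were not targeted, the same medians were -0.06 and -0.07, and in MO/MP-like cells -0.17 and -0.17. For the letters of the other factors the counts were 2 of 16 genes with the ETS letters and 10 of 47 without, against 10.3% and 17.3% of all genes, and 1 of 10 with the NRF1 letters and 11 of 53 without, against 10.9% and 16.1%. These lists were not compared by a test. Just short of 1.5-fold stood Ndufb5 (0.678) and Atp5j2 (0.699), which hold the letters too. The contrast has no replicate, and it rests on few genes: with cells thinned to 2000 UMIs 4 of the 8 genes with the letters that could still be compared and 5 of 34 without were 1.5-fold lower, against 21.9% and 14.7% of all genes with and without them. By 2-fold 2 of the 14 and 3 of the 49 were lower, against 8.92% and 6.17%, and among cells with 5000 to 20000 UMIs 7 of 13 and 9 of 46 were 1.5-fold lower, against 23.9% and 20.7%. Ndufa5 and Sdhd, both low in dKO, were not among the 14.

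Several subunits of complexes I, IV and V have paired isoforms, of which 1 is typical of adult striated muscle, of hypoxia or of other tissues. In MuSC-like cells the form found in most tissues prevailed in each pair. The muscle form Cox6a2 made up 4.03% of Cox6a UMIs in Ctrl (2.91 to 5.41) and 6.61% in dKO (3.83 to 10.5), Cox7a1 made up 1.69% and 1.91% of its pair with Cox7a2, and Cox8b 0.199% and 0.474% of Cox8a, Cox8b and Cox8c. Cox6b2, best known from testis, made up 1.73% and 0.937%. Cox4i2, the hypoxia-linked form of subunit 4, had 0 of 3665 UMIs in Ctrl and 0 of 991 in dKO, and Cox7b2 had 0 of 1219 and 0 of 213. Ndufa4l2 had 4 of 1788 UMIs in Ctrl and 0 of 564 in dKO. For each of these shares the counting intervals of the 2 libraries overlapped.

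The 3 genes of the c ring, which make the same mature protein, each gave a sizeable share of UMIs, not scaled by length and uncertain for Atp5g2, whose end is shared. In Ctrl MuSC-like cells Atp5g1 made up 36.2% of their UMIs, Atp5g2 39.2% and Atp5g3 24.6%. In dKO the shares were 36.1%, 37.5% and 26.4%. In smooth muscle and pericyte-like cells Atp5g1 was lower, at 22.6% and 24.5%.

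The alternative forms of Cox4i1 and Ndufa4 were more abundant in other classes. In smooth muscle and pericyte-like cells Cox4i2 made up 27.1% of Cox4i UMIs in Ctrl and 21.4% in dKO, and Ndufa4l2 77.7% and 69.1% of its pair. Cox4i2 was 1 of the 10 leading genes of that cluster, so its level there is a description and no finding. Ndufa4l2 also made up 47.3% and 54.4% of the pair in tenocyte-like cells and 19.2% and 16.3% in FAP-like cells. When no doublets were removed, a cluster of myocyte-like cells appeared (26 Ctrl and 11 dKO cells, of which 25 and 11 were otherwise removed as doublets). It had the highest respiratory chain share of all, 7.002% in Ctrl and 8.38% in dKO, and there Cox6a2 made up 95.4% and 98.8% of its pair, Cox8b 69.3% and 91.8%, Cox7a1 41.7% and 47.2%, and Atp5g1 66.3% and 64.8% of the c ring genes.

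**Figure D5:**
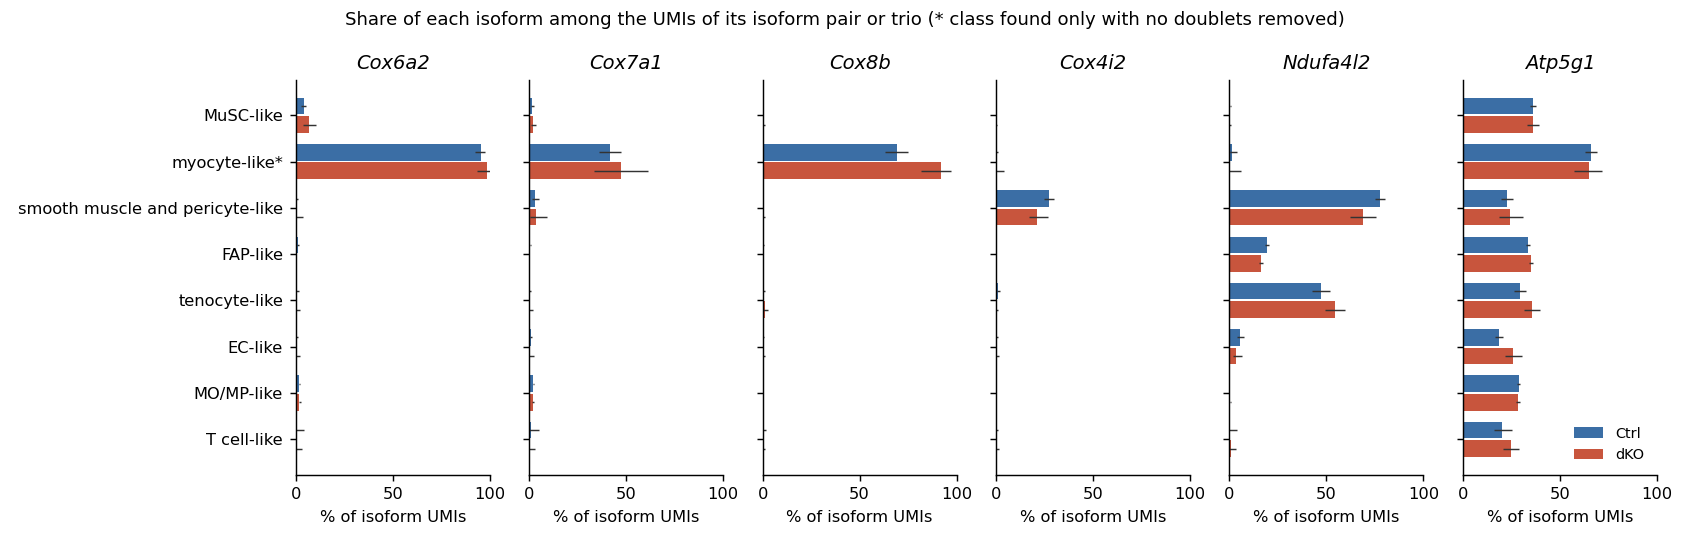
Bars give the share of 6 isoforms among the UMIs of their pair or trio (x axis, percent, with exact binomial 95% intervals as lines) in MuSC-like cells and 7 other classes of Ctrl and dKO. Cox6a2 makes up 4.03% and 6.61% of its pair in MuSC-like cells and 95.4% and 98.8% in myocyte-like cells, which were found only when no doublets were removed, while Cox7a1 makes up 41.7% and 47.2% of its own pair there.

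Genes around the chain were described from lists chosen for their role. In Ctrl the MuSC-like class stood 1.5-fold or more above the median other class for 36 of 48 assembly factors, which build and insert cofactors into the complexes, 18 of 19 genes of mitochondrial protein import, 15 of 17 electron carriers and related genes, and 69 of 78 mitochondrial ribosomal proteins, against the 38.6% of all genes given above. For cytoplasmic ribosomal proteins the count was 49 of 90. In dKO against Ctrl, 10 of 34 assembly factors were lower and 3 higher by 1.5-fold, against 16.0% and 10.4% of all genes, with a median log2 ratio of 0.03. None of 19 import genes passed in either direction, 2 of 16 carriers and 13 of 77 mitochondrial ribosomal proteins were lower, and 0 and 3 were higher, shares that lay near or below those of all genes.

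The assembly factors with the lowest ratios were Ndufaf6, of complex I (50 and 4 UMIs, log2 ratio -1.74), and Pet100, of complex IV (87 and 8 UMIs, -1.54), and the highest were Cox18, which inserts a core subunit of complex IV (0.81), and Ndufaf1 (0.67). Among carriers Chchd10, an intermembrane space protein abundant in muscle, had 402 UMIs in Ctrl (174 CPM) and 6 in dKO (9.70 CPM), a log2 ratio of -4.17 (-5.62 to -3.03), and Etfb, of the electron transfer flavoprotein, was at -0.71. Chchd10 was also a leading gene of the Mymx+ cells. The highest ratios of the carriers were those of the channel gene Vdac3 and of Higd1a, at 0.51 each. Among import genes the ratios lay between -0.57 (Timm8b) and 0.49 (Timm50), with Timm17a (-0.38) and Tomm40 (0.34) next to these, and among mitochondrial ribosomal proteins between -1.48 (Mrpl42) and 0.71 (Mrpl4), with Mrpl37 (-1.35) and Mrpl57 (0.65) next to these.

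Of 12 regulators of mitochondrial genes with 50 or more UMIs, 5 were lower in dKO by 1.5-fold and 0 higher, against 16.0% and 10.4% of all genes, with a median log2 ratio of -0.30. The 5 include the deleted gene Yy1 itself, at -5.04 (-7.33 to -3.48). Ppargc1b, which encodes the coactivator PGC-1beta, had 119 UMIs in Ctrl (51.5 CPM) and 10 in dKO (16.2 CPM), a log2 ratio of -1.67 (-2.77 to -0.74). Ppargc1a, of PGC-1alpha, had 15 and 1 UMIs, too few to compare. Tfam, which packages mitochondrial DNA, was at 43.7 CPM in Ctrl and 51.7 CPM in dKO, and Gabpb1, a partner of GABPA, at 16.0 and 21.01 CPM.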

How the data were processed

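Live mononuclear cells of hind limb muscle were measured by 10x Chromium single cell RNA-seq in 1 Ctrl and 1 dKO library. The authors deposited UMI counts per gene and cell, not normalized. The submitters' processing notes name Cell Ranger 7.0.0, Seurat 4.3.0, Cufflinks and mm10, while the file headers name Cell Ranger 3.0.2.

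Cells with 500 or more genes were kept, and the 7.5% of cells with the highest Scrublet scores (scanpy 1.11.5) were removed from each library, since Scrublet's own threshold marked only 4 and 14 cells and had not worked. Libraries were integrated and clustered in Seurat 5.3.0 (R 4.3.3; 2000 variable genes, 40 dimensions, resolution 0.8), and names were given by 18 marker lists with 183 genes, 4 of them not in the files. Of the variable genes 3 were respiratory chain genes. MuSC-like cells were sub-clustered without the respiratory chain genes (1000 genes, 15 dimensions, resolution 0.4).

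UMIs were summed per class and library and given as CPM or percent of the class total. A gene was compared at 50 or more UMIs and counted as higher or lower at 1.5-fold. Depth sets the intervals (scipy 1.17.1), which cover counting error only. No test was possible with 1 library per group. The counting intervals and the 1.5-fold counts, but not the other steps, were tested on simulated counts. Promoter windows came from RefSeq (GRCm38.p6) and gene positions from GENCODE M21.

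The genes named were, among those with 50 or more UMIs, in each complex the 3 highest and 2 lowest ratios to the median other class in Ctrl (all 4 of complex II), the 6 highest and 6 lowest ratios of dKO to Ctrl, all isoform pairs, the 2 highest and 2 lowest of each other list, the 2 most extreme ratios in the other classes, and the genes below the minimum together; other genes are named where a count or a motif singled them out. The respiratory chain genes and all lists were chosen with earlier results of these data known. The alternatives tried concerned scaling, doublets, cell filter, integration, purity, cell cycle, depth, fold and UMI minimum, and, added after seeing the data, depth windows, sub-clusters and shared barcodes. Some genes are not reported here.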

Additional observations from a re-analysis of the deposited data

Results flagged for a closer look

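The summed respiratory chain level was lower in dKO than in Ctrl MuSC-like cells. The classes below were flagged because their summed level, overall or in a complex, was higher in dKO with a counting interval above no difference. Higher values whose interval included no difference were not flagged. With 1 library per group these differences were not tested. In B cell-like cells the log2 ratio of dKO to Ctrl was 0.16 over all respiratory chain genes, 0.18 for complex I, 0.29 for complex IV and 0.13 for complex V. T cell-like cells were at 0.52 for complex II and 0.11 for complex IV. The ratio for complex I was 0.076 in dendritic cell-like cells and 0.075 in tenocyte-like cells. Lymphatic EC-like cells, of which only 18 and 13 were found, were at 0.21 over all genes, 0.23 for complex I, 0.41 for complex III and 0.21 for complex IV.

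Within the MuSC-like class, Chrdl2+ cells were flagged against Mymx+ cells. In Chrdl2+ cells the log2 ratio was 0.36 over all genes, 0.53 for complex I, 0.46 for complex III, 0.25 for complex IV and 0.28 for complex V, while in Mymx+ cells it was below 0 for all of these. The Chrdl2+ ratio rests on 46 Ctrl and 17 dKO cells. FAP and MO/MP markers differed between the Chrdl2+ cells of the 2 libraries in the same comparison (3743 and 1131 CPM, 1928 and 187 CPM). Without cells holding a UMI of Ptprc, Pecam1 or Pdgfra, which left 44 Ctrl and 16 dKO cells, the log2 ratio was 0.36. Beyond leaving out these cells, the part of the markers in the ratio was not tested.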

How the results depend on the processing

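Each group has 1 library, so none was left out. No paired analysis was possible because each group has 1 library and its number only names it. The alternatives that concern depth windows, sub-clusters, the deepest cells, myocyte markers, shared barcodes and clustering without the respiratory chain genes were chosen after seeing the data, as were all alternatives for the YY1 letters and the sub-clusters.

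The ratio of MuSC-like cells to the median other class, 2.26 in Ctrl and 1.94 in dKO, was 1.81 and 1.58 with the mean of each cell's own CPM, 2.16 and 2.07 with totals free of respiratory chain and ribosomal protein genes, 2.08 and 1.86 with median-ratio scaling, which shifted the class by 0.12 and 0.14 on the log2 scale, 2.13 and 1.73 without cells holding Mki67 or Top2a, 1.62 and 1.45 with thinned cells, 1.33 and 1.202 with 5000 to 20000 UMIs, 2.20 and 1.86 without cells above 1% of myocyte markers, 2.43 and 2.10 in Mymx+ cells and 2.15 and 1.86 without the deepest 10% of cells. In Chrdl2+ cells it was 0.954 in Ctrl, which turned the direction, and 1.19 in dKO. Against all other cells pooled it was 2.02 in Ctrl. In dKO it was 1.86 with no doublets removed, 2.01 at 200 genes and 1.87 with no integration.

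The count of genes 1.5-fold above the median class, 71 in Ctrl and 63 in dKO, was 43 and 28 with 5000 to 20000 UMIs, 2 and 22 in Chrdl2+ cells, and in dKO 34 with thinned cells and 41 at 2-fold. The log2 ratio of dKO to Ctrl, -0.18, was -0.14 without cells holding Ptprc, Pecam1 or Pdgfra, -0.26 without Mki67 or Top2a, -0.22 with thinned cells, -0.21 with 5000 to 20000 UMIs and 0.36, the opposite direction, in Chrdl2+ cells. The count of lower genes, 16 of 78, was 6 at 2-fold and 4 of 44 in Chrdl2+ cells, and that of higher genes, 2 of 78, was 1 at 200 genes, 0 at 2-fold, 15 of 44 in Chrdl2+ cells, and 3 without cells holding Ptprc, Pecam1 or Pdgfra, with no UMI minimum, with 5000 to 20000 UMIs and in Mymx+ cells.

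Of genes with the YY1 letters, 7 were lower, against 4 with thinned cells, 2 at 2-fold and 1 of 7 in Chrdl2+ cells. Of those without, 5 were lower, against 8 without Mki67 or Top2a, 3 at 2-fold, 9 with 5000 to 20000 UMIs and 1 of 28 in Chrdl2+ cells. In Mymx+ cells the log2 ratio of dKO to Ctrl, -0.17, was -0.12 without Ptprc, Pecam1 or Pdgfra and -0.45 with 5000 to 20000 UMIs (2 dKO cells). The causes of these shifts were not tested. Under the other alternatives run, these values moved by less than their counting intervals, or by less than 1.5 times for counts. The 30 dKO cells limit every comparison with Ctrl.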

Other observations

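Other gene lists were compared between the libraries in the MuSC-like class. Of 5 quiescence genes with 50 or more UMIs, 3 were 1.5-fold or more lower in dKO and 1 higher, against 16.0% and 10.4% of all genes, with a median log2 ratio of -0.92. The Notch targets Hes1 (173 and 9 UMIs, -2.36) and Heyl (144 and 9 UMIs, -2.10) were lowest, Hey1, a relative of both, was highest (41 and 22 UMIs, 1.00), and Pax7 was at 56.7 CPM in Ctrl and 50.1 CPM in dKO. Of 10 differentiation genes 3 were lower and 2 higher, against the same shares of all genes, with a median of 0.17. Tnnt1 (131 and 3 UMIs, -3.55) and Tnnt2 (-1.42), of slow and embryonic troponin T, were lowest, and Mylpf (0.89), of a fast muscle myosin light chain, and the fusogen gene Mymk (0.80) highest.

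Of 6 antioxidant enzymes of mitochondria, Prdx3, a peroxiredoxin, had 177 UMIs in Ctrl and 25 in dKO (-0.92), and Gpx4, which reduces lipid peroxides, stood at 367 CPM in Ctrl and 551 CPM in dKO (0.59), with Glrx2 at 0.37 and Txn2 at 0.04. Of 85 cytoplasmic ribosomal protein genes 7 were 1.5-fold lower and 0 higher, against 16.0% and 10.4% of all genes. Rps27 was at -0.82 and Rpl30, from 44 and 7 UMIs, at -0.75, and Rpl22l1 at 0.49 and Rplp0 at 0.42. None of these differences has a replicate.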
